A study of Mus musculus with 20 samples.

Results

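The genes described here are 41 interferon-stimulated genes, read in CD4+ T cells from mice that lack Tet2 and Tet3 in Treg cells. The list is one of symbols, drawn up with earlier results of these data known, and falls into 31 antiviral genes and 10 interferon-inducible GTPases of the Gbp and Irg families. All 41 were among the 16784 genes of the mesenteric lymph node (mLN) count table, and 40 were among the 16740 genes of the table for pooled spleen and peripheral lymph nodes (spleen+pLN), where Gbp7 was not listed. Every listed member passed the filter of at least 1 count in total. The antiviral genes were Isg15, Usp18, Ifit1, Ifit2, Ifit3, Oas2, Oas3, Oasl1, Oasl2, Irf7, Irf9, Ifih1, Ddx58, Dhx58, Zbp1, Eif2ak2, Parp9, Parp14, Dtx3l, Rsad2, Mx1, Bst2, Ifi35, Ifi44, Rtp4, Xaf1, Trim30a, Ifi27l2a, Cmpk2, Slfn5 and Sp100. The GTPases were Gbp2, Gbp3, Gbp4, Gbp5, Gbp7, Igtp, Irgm1, Irgm2, Iigp1 and Ifi47.

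RNA was sequenced from 2 sorted populations of 14-week-old C57BL/6 mice, CD4+YFP+ Treg cells and CD4+YFP- cells (CD4+Foxp3- cells). WT mice carried Foxp3 YFP-Cre alone, and DKO mice carried Foxp3 YFP-Cre with Tet2/3 fl/fl, so the Cre and its YFP reporter were shared by both genotypes. There were 3 libraries per group from mLN (12 in all) and 2 per group from spleen+pLN (8 in all). Cre in these mice is expressed from Foxp3, so DKO CD4+Foxp3- cells mix cells that never deleted Tet2 and Tet3 with former Treg cells that had lost Foxp3. The DKO mice behind the spleen+pLN libraries were littermates that differed in disease severity, and the labels do not tell which replicate is which.

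Interferons act through 2 linked routes. Type I interferons bind IFNAR and, through JAK1 and TYK2, activate STAT2, which joins IRF9 on the interferon-stimulated response element (ISRE) of antiviral genes. Interferon-γ binds IFNGR and, through JAK1 and JAK2, drives transcription from the gamma-activated site (GAS). Antiviral genes sense, degrade or block viral nucleic acid, whereas Gbp and Irg GTPases gather on the vacuoles of intracellular microbes and are best known as targets of interferon-γ. In T cells the same pathway also shapes differentiation, and in Treg cells interferon signals can alter stability and suppressive function.

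Promoter stretches of members from both classes are shown so that the elements named above can be read beside the values. They were taken from RefSeq (GRCm38.p6) windows of 300 bases, from 250 before to 50 after a gene's start, with motif matches in capitals. The ISRE core searched was GAAANNGAA and the GAS was TTCNNNGAA, each on both strands and with overlaps allowed.
Igtp: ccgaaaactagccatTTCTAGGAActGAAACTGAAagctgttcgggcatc
Irgm2: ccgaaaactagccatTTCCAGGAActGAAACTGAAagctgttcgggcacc
Gbp3: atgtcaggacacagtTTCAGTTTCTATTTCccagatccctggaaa
Gbp5: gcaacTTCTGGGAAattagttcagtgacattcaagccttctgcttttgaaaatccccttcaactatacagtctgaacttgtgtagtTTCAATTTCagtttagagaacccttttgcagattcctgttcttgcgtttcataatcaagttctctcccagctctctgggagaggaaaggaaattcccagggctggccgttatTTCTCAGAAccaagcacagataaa
Isg15: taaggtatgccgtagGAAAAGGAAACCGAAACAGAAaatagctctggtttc
Rsad2: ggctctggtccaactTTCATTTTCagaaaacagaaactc

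The Igtp stretch lies at chr11:58199496-58199545 and the Irgm2 stretch at chr11:58214887-58214936, both on the plus strand. They were identical at 48 of 50 bases, each with a GAS followed by an ISRE core a few bases on. The Gbp3 stretch (chr3:142559985-142560029, plus strand) held a pair of overlapping ISRE cores read on the opposite strand and no GAS. The Gbp5 stretch (chr3:142496684-142496905, plus strand) held 2 GAS matches on either side of 1 ISRE core. The Isg15 stretch (chr4:156200861-156200911, minus strand) held 3 overlapping ISRE cores, and the Rsad2 stretch (chr12:26456548-26456586, minus strand) held 1. Over the 30 members with a window, an ISRE core was present in 12 of 22 antiviral genes (54.5%) and in 7 of 8 GTPases (87.5%), against 9.76% of the 27025 genes with a window. A GAS was present in 4 of 22 antiviral genes (18.2%) and 4 of 8 GTPases (50%), against 9.55% of all genes. Both motifs in 1 window were found in 2 antiviral genes (9.09%) and 4 GTPases (50%), against 1.24% of all genes. No test compared the classes, and these matches describe letters in a window and not bound sites.

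Several members are neighbours in the genome, so their values are not independent of shared sequence. On NCBIM37 (mm9), Gbp2, Gbp3, Gbp5 and Gbp7 lie within chr3:142159864-142300972, Igtp and Irgm2 within chr11:58013058-58036282, Irgm1 and Ifi47 within chr11:48675470-48910476, and Ifit1, Ifit2 and Ifit3 within chr19:34625184-34724499. Reads of 50 bases can be shared among close relatives of the Gbp, Irg, Ifit, Oas and Trim30 families, and the split of such reads between copies is uncertain.

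The libraries held 9998478 to 15449158 counted reads in mLN and 13525932 to 15253141 in spleen+pLN. CPM are counts per 1000000 reads of a library total that was scaled by its TMM normalisation factor. On this scale 3 counts, taken as the floor, correspond to at most 0.299 CPM. The sorted populations carried their markers: Foxp3 was 277 to 329 CPM in mLN Treg libraries and at most 2.75 CPM in mLN CD4+Foxp3- libraries. Counts of Tet2 and Tet3 include exons outside the floxed part and do not check the deletion (Tet2 log2 fold change 0.01 and Tet3 -0.30 in mLN DKO Treg cells). DKO libraries also differed from WT in markers of other cells and of cell state. In mLN Treg libraries the summed CPM of 3 NK cell markers was 74.8 to 162 in DKO against 9.54 to 11.4 in WT, that of 9 myeloid markers 14.9 to 54.9 against 3.06 to 5.67 with Cd14 at 0 in WT, that of 8 B cell markers 41.8 to 107 against 31.5 to 40.3 with Pax5 at 0 in WT, that of 5 cycling markers 427 to 549 against 152 to 223, that of 5 naive T cell markers 1631 to 2425 against 2831 to 3352, and that of 4 Treg markers 1157 to 1492 against 1657 to 1832. In mLN CD4+Foxp3- libraries the Treg markers were 106 to 226 CPM in DKO against 66.1 to 76.0 in WT, the NK cell markers 53.8 to 141 against 31.9 to 41.8, the cycling markers 136 to 176 against 77.4 to 93.8, the B cell markers 10.02 to 22.03 against 5.59 to 7.02 and the naive markers 3395 to 5748 against 5725 to 6099. In spleen+pLN Treg libraries the NK cell markers were 91.2 to 125 CPM in DKO against 8.77 to 9.99 in WT and the naive markers 1693 to 2139 against 2626 to 2812, the myeloid markers 13.2 to 34.4 against 3.46 to 5.43 and the cycling markers 151 to 215 against 87.3 to 96.2, while the Treg markers overlapped. In spleen+pLN CD4+Foxp3- libraries the Treg markers were 558 CPM in DKO replicate 1 and 127 in DKO replicate 2 against 118 to 130 in WT, the naive markers 1832 to 3575 against 4306 to 4656, the myeloid markers 22.9 to 30.7 against 9.04 to 10.2, the B cell markers 25.1 to 47.5 against 13.8 to 16.9, 9 dendritic cell markers 12.4 to 20.8 against 5.09 to 6.67 and the cycling markers 102 to 218 against 72.0 to 73.1. Summed CD8 T cell markers (2 genes) were lower in DKO than in WT in all 4 pairs of groups. Their part in the results below was not tested. In bulk RNA, fewer cells expressing a gene and less RNA per cell cannot be told apart.

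A few DKO libraries stood apart in the members themselves. In mLN, DKO CD4+Foxp3- replicate 2 was the lowest of its group in 30 of 31 antiviral genes and 10 of 10 GTPases, and DKO Treg replicate 2 in 24 of 31 and 10 of 10, whereas DKO Treg replicate 3 was the highest in 28 of 31 and 10 of 10. In spleen+pLN, DKO CD4+Foxp3- replicate 1 was the lower of the pair in 27 of 31 antiviral genes and 9 of 9 GTPases. That order alone did not set it apart. WT CD4+Foxp3- replicate 1 was the lower in 29 of 31 and 8 of 9, and WT Treg replicate 1 in 27 of 31 and 8 of 9. Summed GTPase CPM was 744 and 1260 in the DKO CD4+Foxp3- pair, against 1438 and 1629 in the WT pair. In mLN, WT CD4+Foxp3- replicate 2 was the highest in 25 of 31 antiviral genes and 5 of 10 GTPases. Plasma cell markers were highest in the mLN DKO replicate 2 libraries (18.5 and 18.9 CPM, against at most 3.02 in the other mLN libraries) and in the spleen+pLN DKO replicate 1 libraries (126 and 93.2 CPM, against at most 26.4). The mLN DKO Treg replicate 3 library instead held the highest B cell (107 CPM) and myeloid (54.9 CPM) markers of mLN. Their part was not tested, and results that rest on these libraries are also given without them.

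Per transcript length, the members spanned a wide range. In the mLN table the mean TPM of the authors was highest for Ifi27l2a, of the interferon-inducible Ifi27 family (726), for the nuclear body gene Sp100 (394.5), for the Irg GTPases Ifi47 (302) and Igtp (216), and for the tetherin gene Bst2 (140). Gbp2 (131) led the Gbp family, Zbp1 (107) the nucleic acid sensors, Irf9 (102) the regulatory factors, Isg15 (100.4) the ISG15 system, Dtx3l (81.9) the PARP9 complex, Ifit1 (48.2) the IFIT genes and Oas3 (24.6) the OAS genes. Oas2 (3.18) and Mx1 (3.64) were the lowest. Antiviral transcripts thus covered both the most and the least abundant members, and the GTPases sat between.

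**Figure D1:**
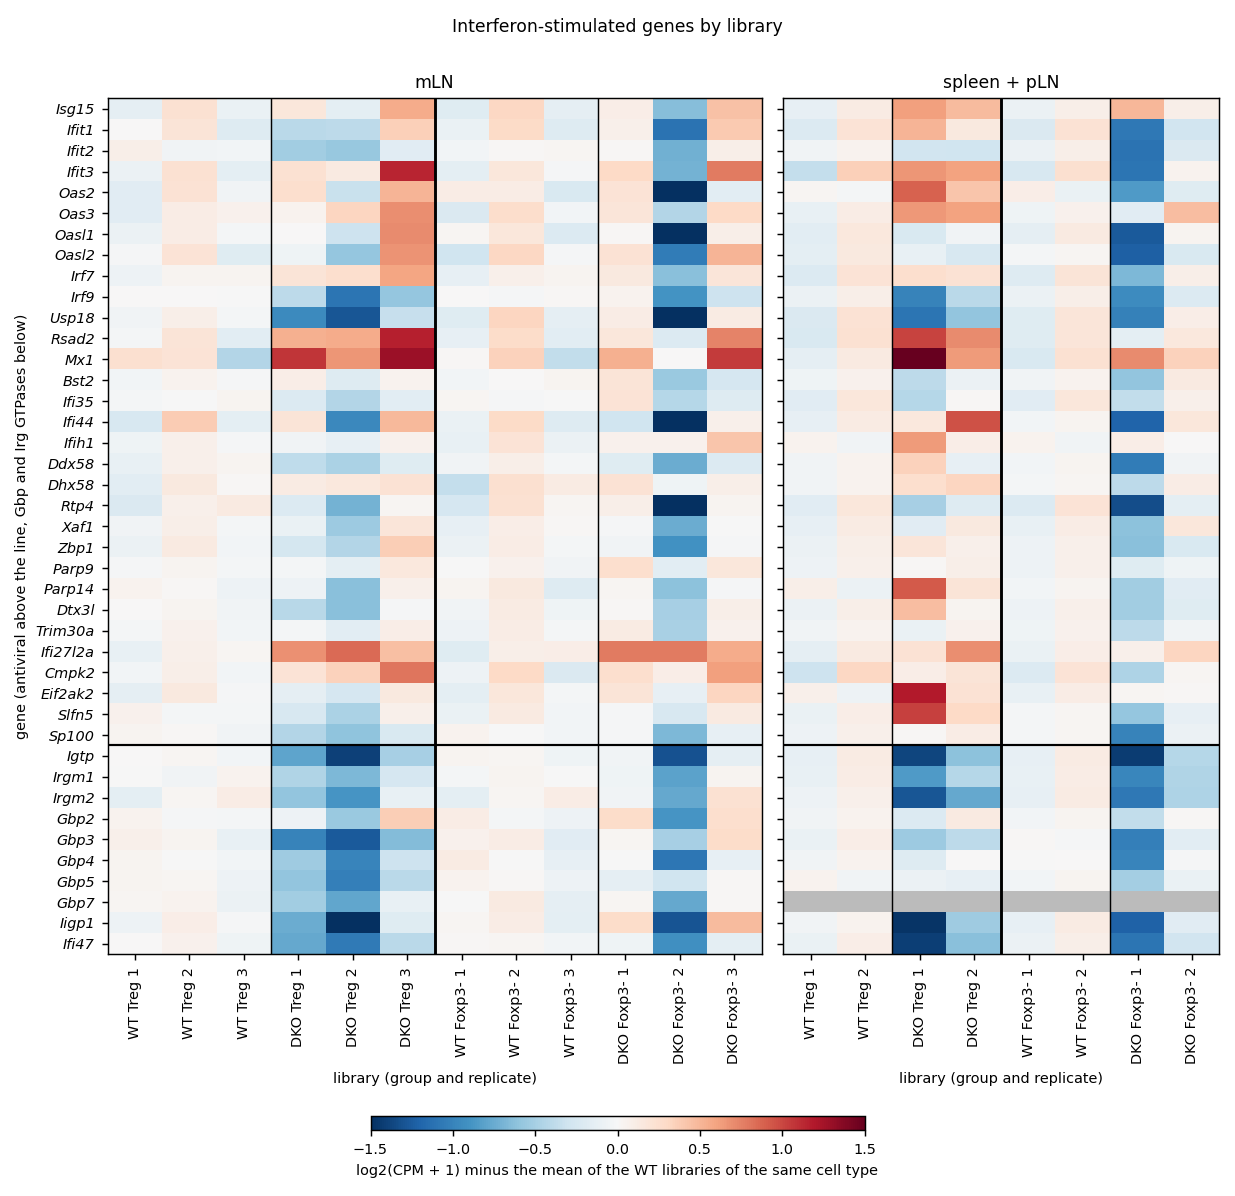
Member levels in every library of both tissues, as log2(CPM + 1) minus the mean of the WT libraries of the same cell type, with genes in rows (antiviral genes above the line, GTPases below), libraries in columns by group and replicate, and grey for Gbp7, which was not listed in spleen+pLN. Blue marks values below WT, which fill most GTPase rows of the DKO Treg columns and nearly all rows of DKO CD4+Foxp3- replicate 2 in mLN and replicate 1 in spleen+pLN.

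In mLN Treg cells, calls among the Gbp and Irg GTPases were all lower in DKO, and those among the antiviral genes went in both directions. Of 10 GTPases, 4 fell (Gbp3, Igtp, Ifi47 and Gbp5) and 0 rose, and of 31 antiviral genes 3 rose (Mx1, Rsad2 and Ifi27l2a) and 1 fell (Irf9). A gene was called when its p from edgeR's quasi-likelihood test, adjusted over all 16784 genes by the Benjamini-Hochberg method, did not exceed 0.05 and its levels differed at least 1.5-fold. Of all genes tested, 8.5% were called higher and 3.43% lower in DKO Treg cells. The share of GTPases called lower was thus above that of all genes, and the share of antiviral genes called in either direction was close to it. The median log2 fold change was -0.63 over the GTPases and -0.02 over the antiviral genes, against 0.00 over all genes. All 10 GTPases and 18 of 31 antiviral genes had a log2 fold change below 0.

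Gbp3, a guanylate-binding protein of the chromosome 3 cluster, was at 118.5, 115.5 and 103.6 CPM in WT Treg cells and at 55.6, 46.2 and 71.1 CPM in DKO Treg cells. The groups did not overlap, and DKO cells held 51.2% of the WT level (log2 fold change -0.97, SE 0.18, adjusted p = 0.00296). The call remained in all 12 alternative analyses, with adjusted p between 3.48e-05 and 0.0164. Gbp5, known for promoting inflammasome assembly, was at 98.04, 97.5 and 90.1 CPM in WT and at 62.7, 46.1 and 71.7 CPM in DKO Treg cells. The groups again did not overlap (log2 fold change -0.66, SE 0.13, adjusted p = 0.00468), and without DKO Treg replicate 2 the fold change dropped under the minimum, at a log2 value of -0.50.

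Igtp (Irgm3), an Irg GTPase of parasite vacuole defence, was at 346, 353 and 335 CPM in WT and at 199, 130 and 244 CPM in DKO Treg cells. Its log2 fold change was -0.85 (SE 0.27, adjusted p = 0.0401). Ifi47, another Irg GTPase and the most abundant per length, was at 404, 420 and 386 CPM in WT and at 237, 193 and 304 CPM in DKO Treg cells. Its log2 fold change was -0.72 (SE 0.19, adjusted p = 0.019). For both genes every DKO library was below every WT library, but the calls rested on the full set of libraries. The Igtp call was lost when WT replicate 1, 2 or 3 or DKO replicate 1 or 2 was left out and with a robust prior, and the Ifi47 call when WT replicate 1 or 2 or DKO replicate 1 or 2 was left out, with adjusted p up to 0.142 and 0.0775.

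The other 6 GTPases did not pass the test. Iigp1, which coats parasite vacuoles, was at 108, 123 and 113 CPM in WT and at 67.7, 31.98 and 101 CPM in DKO Treg cells (log2 fold change -0.78, adjusted p = 0.192). Gbp4 (-0.59), Irgm2 (-0.50), Irgm1 (-0.46) and Gbp7 (-0.45) had log2 fold changes of similar sign. Gbp2 (-0.04), the most abundant Gbp per length, was at 209, 199 and 197 CPM in WT and at 191, 137 and 261 CPM in DKO, so that its DKO libraries lay on both sides of the WT libraries. Every DKO library was below every WT library for 8 of 10 GTPases, the exceptions being Gbp2 and Irgm2. Over all genes this held for 19.2%, and the reverse order, every DKO library above every WT library, for 21.3%. Without DKO replicate 2 of both cell types, 9 of 10 GTPases still had a log2 fold change below 0, with a median of -0.43. Without DKO Treg replicate 3, 6 of 10 were called lower, with Gbp7 (-0.65, adjusted p = 0.0408) and Irgm2 (-0.74, adjusted p = 0.0425) beside the 4 above, and the median was -0.78. In that fit 3.59% of all genes were called lower.

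**Figure D2:**
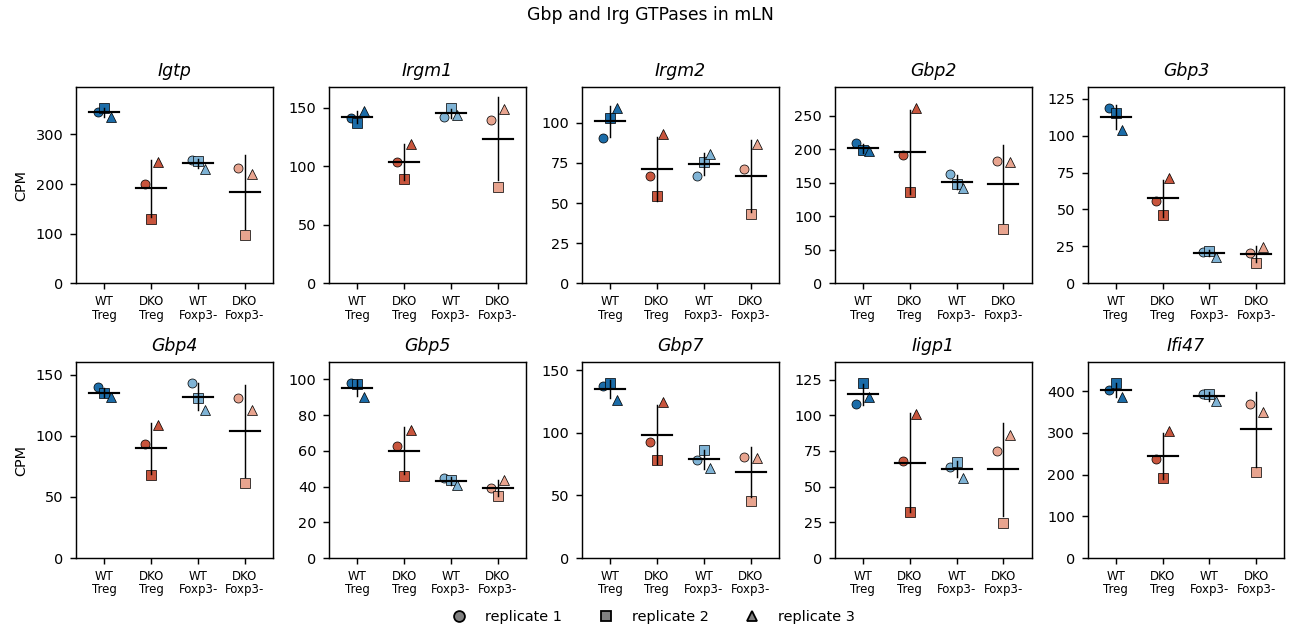
CPM of the 10 Gbp and Irg GTPases in the 12 mLN libraries, with 1 panel per gene, symbols for replicates, horizontal bars for group means and vertical bars of ±1 SD (n = 3). The DKO Treg points lie below the WT Treg points for every gene but Gbp2 and Irgm2, and the lowest DKO Treg point is replicate 2 throughout.

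Among antiviral effectors, Mx1, a dynamin-like GTPase that blocks viral ribonucleoproteins and is encoded by a truncated allele in C57BL/6 mice, was at 5.01, 4.88 and 2.75 CPM in WT and at 9.70, 7.04 and 11.4 CPM in DKO Treg cells. It was higher by a log2 fold change of 1.14 (SE 0.34, adjusted p = 0.0319). Rsad2 (viperin), which makes a chain-terminating ribonucleotide, was at 13.6, 16.1 and 12.4 CPM in WT and at 20.6, 21.1 and 32.6 CPM in DKO Treg cells (log2 fold change 0.81, SE 0.25, adjusted p = 0.0356). Both are low-abundance transcripts whose DKO libraries were all above the WT libraries. Either call was lost without WT replicate 1, 2 or 3 or without DKO replicate 3, that of Mx1 also without DKO replicate 1 and that of Rsad2 also with a robust prior (adjusted p up to 0.127 for Mx1 and 0.139 for Rsad2).

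Ifi27l2a was at 283, 322 and 313 CPM in WT and at 492, 551 and 420 CPM in DKO Treg cells. It rose by a log2 fold change of 0.67 (SE 0.11, adjusted p = 0.0016), and without DKO replicate 2 its fold change was under the minimum at a log2 value of 0.57. Irf9, the DNA-binding subunit of ISGF3, was at 184, 183 and 182 CPM in WT and at 139, 84.9 and 122 CPM in DKO Treg cells. It fell, with a log2 fold change of -0.67 (SE 0.20, adjusted p = 0.0338), and kept its call in 5 of 12 alternatives. The losses came on leaving out WT replicate 1, 2 or 3, DKO replicate 2 or 3, or DKO replicate 2 of both cell types, and with a robust prior, and adjusted p reached 0.122 among the alternatives. Irf7, the factor that amplifies type I interferon, had a log2 fold change of 0.36 with all DKO libraries above WT. It did not pass the test, and no test compared Irf7 with Irf9.

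The remaining antiviral genes did not pass. In the ISG15 system, Isg15, a ubiquitin-like modifier, was at 34.8, 45.3 and 35.8 CPM in WT and at 43.2, 34.6 and 57.1 CPM in DKO Treg cells, with overlapping groups. Usp18, which removes ISG15 and restrains IFNAR, was at 58.9, 65.3 and 60.0 CPM in WT and at 31.2, 24.7 and 47.99 CPM in DKO (log2 fold change -0.83, adjusted p = 0.127), and passed only without DKO replicate 2 of both cell types (-0.63, adjusted p = 0.00693). Isg15 (log2 fold change 0.22) and Usp18 differed in sign, but neither was called with all libraries and no test compared them. Ifit1, which binds viral RNA caps, was at 66.2, 75.9 and 57.5 CPM in WT and at 49.7, 50.02 and 85.1 CPM in DKO. The log2 fold changes of the IFIT genes were -0.11 (Ifit1), -0.42 (Ifit2) and 0.58 (Ifit3), of which Ifit3 passed only without DKO replicate 2 of both cell types (0.76, adjusted p = 0.00962).

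Oas3, a synthetase that activates RNase L, was at 47.5, 57.9 and 56.0 CPM in WT and at 55.8, 67.4 and 87.7 CPM in DKO Treg cells. None of the 4 OAS genes was called, and all had log2 fold changes above 0 (median 0.22). Zbp1, a sensor of Z-form nucleic acid, was at 114, 134 and 118 CPM in WT and at 101, 89.3 and 157 CPM in DKO. The sensors ranged from -0.35 (Ddx58, encoding RIG-I) to 0.16 (Dhx58), with Ifih1 at -0.04 and Eif2ak2 at -0.08. Dtx3l, the E3 ligase partner of PARP9, was at 266, 274 and 256 CPM in WT and at 199, 172 and 262 CPM in DKO. In the PARP9 complex the log2 fold changes were -0.33 (Dtx3l), -0.18 (Parp14) and 0.00 (Parp9). Over the 31 antiviral genes, every DKO library was above every WT library for 5 and below for 6, against the 21.3% and 19.2% of all genes given above. By unadjusted p under 0.05, 9 of 31 antiviral genes and 8 of 10 GTPases passed, against 32.4% of all genes.

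In mLN CD4+Foxp3- cells, 1 member was called. Ifi27l2a was at 194, 233 and 235 CPM in WT and at 377, 378 and 324 CPM in DKO cells. It rose by a log2 fold change of 0.70 (SE 0.11, adjusted p = 0.00784 by edgeR's quasi-likelihood test with Benjamini-Hochberg adjustment), and the call was lost without WT replicate 1 (adjusted p = 0.0517). Of all genes, 3.12% were called higher and 0.304% lower in these cells. No GTPase was called by edgeR or by DESeq2, and 0 of 10 passed an unadjusted p under 0.05, against 18.7% of all genes. The median log2 fold change was -0.18 over the GTPases and -0.10 over the antiviral genes.

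The GTPase values in CD4+Foxp3- cells turned on 1 library. Igtp was at 248, 246 and 231 CPM in WT and at 233, 97.3 and 220 CPM in DKO, and Gbp2 was at 163, 148 and 143 CPM in WT and at 183, 81.1 and 180 CPM in DKO. In both genes DKO replicate 2 alone was far below the others. Without it, 5 of 10 GTPases had a log2 fold change below 0 and the median was 0.015, while the antiviral median became 0.10. Every DKO library was below every WT library for 1 GTPase, Ifi47, and for 1 antiviral gene, Ddx58, and above for Ifi27l2a. Over all genes, every DKO library lay below every WT library for 9.74% and above for 11.1%.

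**Figure D3:**
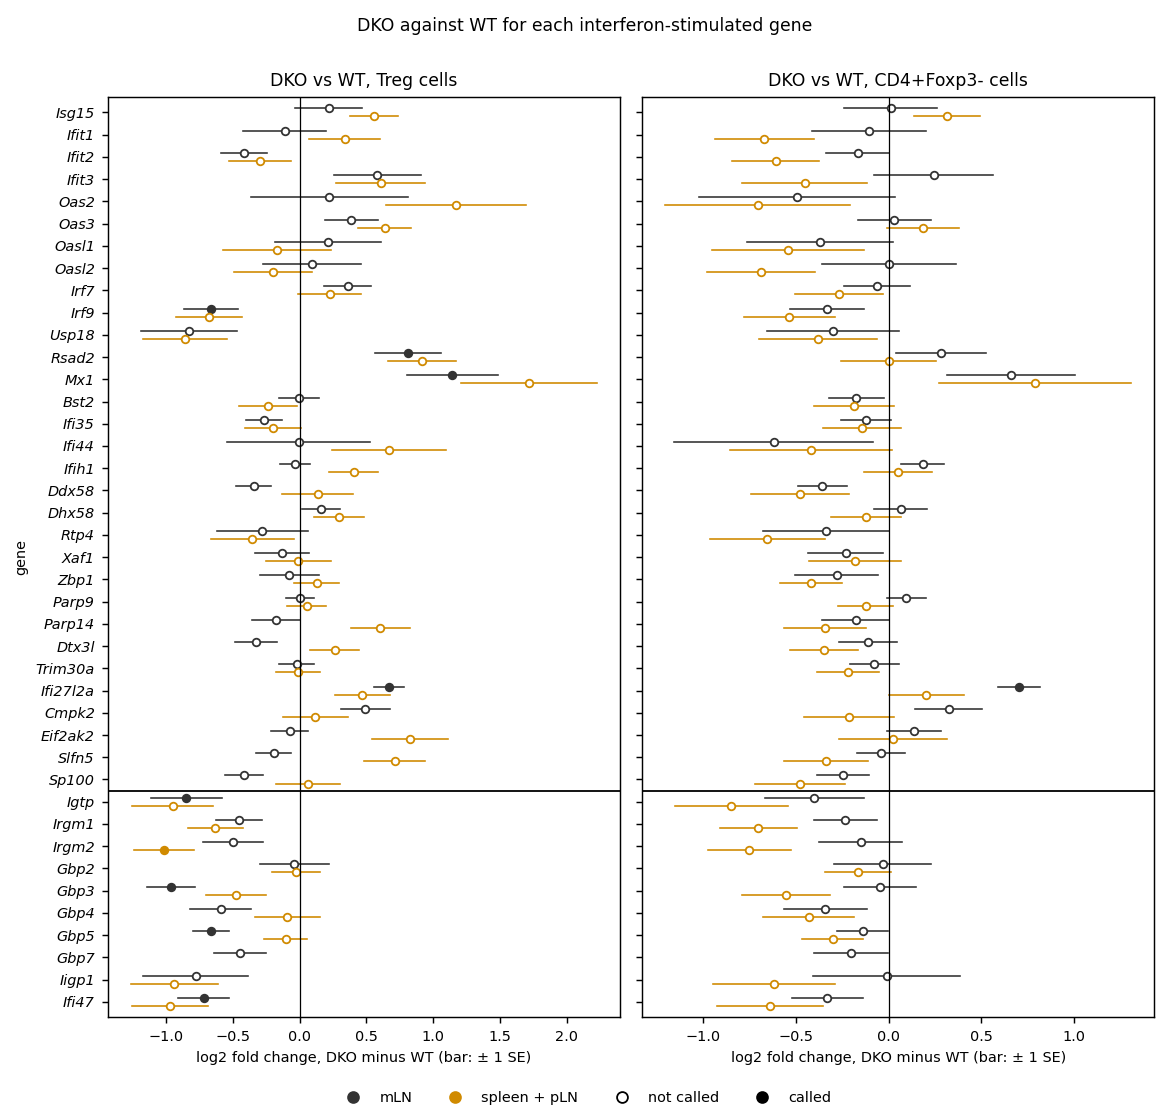
Log2 fold change of each member in DKO against WT, for Treg and CD4+Foxp3- cells of each tissue, from edgeR's fit, with bars of ±1 SE, filled points for calls and colours for the tissues. In mLN Treg cells all 10 GTPases lie below 0, with Gbp3 the lowest at -0.97, and Mx1 lies highest at 1.14.

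A test of the difference between the cell types in mLN, the interaction of genotype and cell type, called 0 of 41 members in edgeR's quasi-likelihood test, against 0.28% of all genes. With an unadjusted p under 0.05 there were 2, Gbp3 and Gbp5, against 10.9% of all genes. Gbp3 differed most: the DKO change in Treg cells was lower than that in CD4+Foxp3- cells by a log2 value of -0.92 (SE 0.26, adjusted p = 0.175), and for Gbp5 by -0.52 (adjusted p = 0.313). The replicate numbers were taken to pair the Treg and CD4+Foxp3- libraries of a genotype in mLN, which no label states. With the replicate as a block within genotype the Gbp3 interaction passed (adjusted p = 0.0154) while that of Gbp5 did not (adjusted p = 0.0623). DESeq2 also called Gbp3 (adjusted p = 0.0497), as did the fit without DKO CD4+Foxp3- replicate 2 (adjusted p = 0.00966). The interaction value was below 0 for all 10 GTPases, with a median of -0.37, and its median over the antiviral genes was 0.06. Both genotype comparisons within mLN were made on separate libraries, and the fall of Igtp, Ifi47 and Gbp5 was not shown to differ from that in CD4+Foxp3- cells.

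In spleen+pLN Treg cells, 1 member was called, the Irg GTPase Irgm2. It was at 126 and 140 CPM in WT and at 53.9 and 77.8 CPM in DKO, which is 49.5% of the WT level (log2 fold change -1.02, SE 0.22, adjusted p = 0.045). Of all 16357 genes tested, 1.14% were called higher and 0.605% lower. The call was lost when WT replicate 1 or 2 or DKO replicate 1 was left out, and with a stricter filter on low counts or a robust prior. The other Irg GTPases had log2 fold changes of -0.97 (Ifi47, adjusted p = 0.0933), -0.95 (Igtp, adjusted p = 0.113), -0.94 (Iigp1, adjusted p = 0.135) and -0.63 (Irgm1, adjusted p = 0.119). DESeq2 called Ifi47 beside Irgm2.

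The Irg and Gbp genes are given by family here, with no test between the families. Ifi47 was at 563 and 649 CPM in WT and at 226 and 392 CPM in DKO Treg cells, and all 5 Irg GTPases had every DKO library below every WT library. Gbp3 was at 90.6 and 104 CPM in WT and at 66.2 and 73.7 CPM in DKO (log2 fold change -0.48), whereas Gbp5 (-0.10), Gbp4 (-0.09) and Gbp2 (-0.03) were close to 0. Every DKO library was below every WT library for 7 of 9 GTPases, against 26.1% of all genes, and above for 14 of 31 antiviral genes, against 28.1% of all genes. It was below for 5 of 31 antiviral genes (Ifit2, Irf9, Usp18, Bst2 and Rtp4) and above for 0 of 9 GTPases. With 2 libraries a group, such an order is common over all genes.

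No antiviral gene was called in spleen+pLN Treg cells by edgeR or DESeq2, and 12 of 31 had an unadjusted p under 0.05, against 20.4% of all genes. Without DKO Treg replicate 2, which leaves replicate 1 alone against WT, 5 antiviral genes were called higher (Eif2ak2, Ifih1, Mx1, Parp14 and Slfn5) and 3 GTPases lower, with 6.92% of all genes called higher and 3.52% lower in that fit. Without DKO replicate 1 of both cell types, 4 antiviral genes were called higher (Rsad2, Ifi27l2a, Ifi44 and Oas3), and Usp18 and 3 GTPases lower, with 5.3% of all genes higher and 2.89% lower. With all libraries the median log2 fold change of the antiviral genes was 0.23, and the shift of their median level depended on the scale, at 0.04 in log2(CPM + 1) and 0.72 in log2(TPM + 1). Mx1 was at 1.23 and 1.67 CPM in WT and at 6.75 and 2.80 CPM in DKO (log2 fold change 1.72), and Rsad2 was at 8.53 and 12.1 CPM in WT and at 21.6 and 17.3 CPM in DKO (0.92). Irf9 was at 209 and 237 CPM in WT and at 111 and 168 CPM in DKO (-0.68). Usp18 was at 44.7 and 60.4 CPM in WT and at 23.9 and 34.1 CPM in DKO (-0.86). In each of these 4 genes the DKO libraries lay on 1 side of the WT libraries, although none passed the test.

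In spleen+pLN CD4+Foxp3- cells, the quasi-likelihood test of edgeR called 0 of 40 members and DESeq2 called 0, while 9 had an unadjusted p under 0.05, against 12.9% of all genes. Of all genes, 0.77% were called higher and 0.0489% lower. The median log2 fold change was -0.62 over the GTPases and -0.34 over the antiviral genes. Igtp was at 305 and 359 CPM in WT and at 123 and 246 CPM in DKO, the lower value being replicate 1. Every DKO library was below every WT library for 8 of 9 GTPases and 11 of 31 antiviral genes, against 21.1% of all genes, and above for 2 antiviral genes, Isg15 and Mx1, against 20.8%. Without DKO CD4+Foxp3- replicate 1 the medians became -0.18 and 0.02. Without DKO CD4+Foxp3- replicate 2, which leaves replicate 1 alone against WT, 21 members were called lower, and in that fit 7.28% of all genes were called lower and 9.62% higher. The interaction of genotype and cell type called 0 of 40 members by edgeR and by DESeq2, against 0.00611% of all genes by edgeR. With an unadjusted p under 0.05 there were 8 members, against 5.53% of all genes.

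Between Treg and CD4+Foxp3- cells of WT mLN, 5 members were called, with Gbp3, Gbp5, Gbp7 and Eif2ak2 higher and Oas2 lower in Treg cells. Gbp3 was at 21.3, 22.1 and 17.95 CPM in CD4+Foxp3- cells, so that Treg cells held 5.49 times as much (log2 fold change 2.46, SE 0.19, adjusted p = 4.07e-06). Gbp5 was at 44.8, 43.7 and 40.7 CPM in the same cells, and was 2.21-fold higher in Treg cells (log2 fold change 1.14, SE 0.14, adjusted p = 1.29e-04). Gbp7 (log2 fold change 0.77, adjusted p = 0.0184) and Eif2ak2, encoding the translation kinase PKR (0.70, adjusted p = 0.005), were also higher in Treg cells, the Eif2ak2 call remaining in all 12 alternatives and the Gbp7 call being lost without Treg replicate 1 or 2 or CD4+Foxp3- replicate 1 or 3. Oas2 was lower, at 2.55, 3.64 and 2.85 CPM in Treg cells against 13.5, 13.5 and 10.5 CPM in CD4+Foxp3- cells (log2 fold change -2.05, adjusted p = 0.0279), and its call was lost on leaving out any 1 of the 6 libraries and with a robust prior. Of all genes, 6.91% were called higher and 3.14% lower in WT Treg cells.

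In DKO mice of mLN, Gbp3 was again higher in Treg cells, by a smaller value whose difference from WT is the interaction given above (adjusted p = 0.175). It was at 20.9, 14.1 and 24.9 CPM in DKO CD4+Foxp3- cells, and Treg cells held 2.90 times as much (log2 fold change 1.54, SE 0.19, adjusted p = 1.74e-04). Gbp5 was 1.54-fold higher in DKO Treg cells (log2 fold change 0.62, adjusted p = 0.00698), a call lost without DKO Treg replicate 3 or without DKO CD4+Foxp3- replicate 2. Of all genes, 7.75% were called higher and 3.49% lower in DKO Treg cells than in DKO CD4+Foxp3- cells. No other member was called in DKO mice. With the replicate as a block within genotype, Iigp1 was also higher in WT Treg cells (log2 fold change 0.88, adjusted p = 5.76e-04, against 0.171 without the block) and Mx1 in DKO Treg cells (0.75, adjusted p = 0.0192, against 0.174). Without DKO CD4+Foxp3- replicate 2, 10 members were called in DKO mice, 1 higher and 9 lower in Treg cells, and in that fit 11.2% of all genes were called higher and 6.32% lower.

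In spleen+pLN, Gbp3 was at 32.3 and 31.4 CPM in WT CD4+Foxp3- cells against 90.6 and 104 CPM in WT Treg cells (log2 fold change 1.61, adjusted p = 0.0018), and Gbp5 was higher by 0.96 (adjusted p = 0.00512). In DKO mice the log2 fold changes were 1.69 for Gbp3 (adjusted p = 0.00167), 1.16 for Gbp5 (adjusted p = 0.00179) and 0.82 for Ifi27l2a (adjusted p = 0.046). Of all genes, 2.48% were called higher and 1.52% lower in WT Treg cells, and 2.16% and 1.61% in DKO Treg cells. The higher Gbp3 and Gbp5 in Treg cells was therefore called in both tissues and both genotypes. In WT mice of this tissue the Gbp3 call was lost without Treg replicate 2 or either CD4+Foxp3- replicate, and the Gbp5 call without any 1 of the 4 libraries. The Ifi27l2a call in DKO mice was lost without Treg replicate 1 or 2 or CD4+Foxp3- replicate 1, with a stricter filter on low counts and with a robust prior. Without DKO CD4+Foxp3- replicate 2, 22 members were called higher in DKO Treg cells and 0 lower, with 4.21% of all genes called higher in that fit.

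Genes of the interferon pathway outside the 41 were counted by role in mLN Treg cells, where 8.5% of all genes were called higher and 3.43% lower. Of 5 receptor genes 0 rose and 1 fell, Ifngr2, the signalling chain of the interferon-γ receptor. It was at 36.1, 43.4 and 43.0 CPM in WT and at 15.8, 16.9 and 20.5 CPM in DKO Treg cells (log2 fold change -1.20, SE 0.22, adjusted p = 0.00234). The groups were far apart, and the call remained in all 12 alternatives. The ligand-binding chain Ifngr1 had a log2 fold change of -0.26 and overlapped. Ifngr1 was higher in Treg than in CD4+Foxp3- cells of both genotypes in mLN (log2 fold change 1.15 in WT and 0.95 in DKO).

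Of 4 kinase and STAT genes (Jak1, Jak2, Tyk2 and Stat2) 0 were called by edgeR and 0 by DESeq2, with 1 at an unadjusted p under 0.05. Their log2 fold changes ran from -0.19 (Jak1) to 0.18 (Tyk2), and Stat2 (0.06) and Jak2 (-0.08) were close to 0. Of 5 further regulatory factors 1 fell, Irf8, at 29.3, 27.7 and 32.4 CPM in WT and at 14.4, 8.55 and 18.4 CPM in DKO (log2 fold change -1.12, SE 0.28, adjusted p = 0.0138), with its call lost only without WT replicate 3. Irf1, an interferon-induced factor that drives many Gbp genes, had a log2 fold change of -0.59 (adjusted p = 0.0843) and was not called.

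Of 5 inhibitor genes 2 fell. Socs1, which blocks JAK activity, was at 41.9, 59.0 and 67.4 CPM in WT and at 25.7, 26.6 and 38.8 CPM in DKO Treg cells (log2 fold change -0.89, SE 0.22, adjusted p = 0.0128), a call lost without WT replicate 3 or DKO replicate 2. Socs3, better known for restraining IL-6 signals, was at 135, 148 and 153 CPM in WT and at 64.2, 49.4 and 118 CPM in DKO (log2 fold change -0.91, adjusted p = 0.0419), a call lost without WT replicate 1, 2 or 3 or DKO replicate 1 or 2 and with a robust prior. None of the 3 ligand genes listed in mLN was called in these cells, and Ifng was at most 3.71 CPM in any mLN library. Of 14 nucleic acid sensing genes 1 rose and 1 fell, and of 38 other antiviral genes 1 rose and 1 fell, against 8.5% higher and 3.43% lower of all genes. DESeq2 called 2 of the 38 higher and 2 lower. In spleen+pLN Treg cells DESeq2 called the ligand gene Ifng lower in DKO (log2 fold change -1.75, adjusted p = 0.0206), against 1.32% of all genes. The summed CPM of 7 ligand genes there was 1.43 to 1.98 in DKO against 4.38 to 6.33 in WT Treg libraries. In spleen+pLN CD4+Foxp3- libraries it was 4.71 to 9.71 in DKO against 12.5 to 14.7 in WT.

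**Figure D4:**
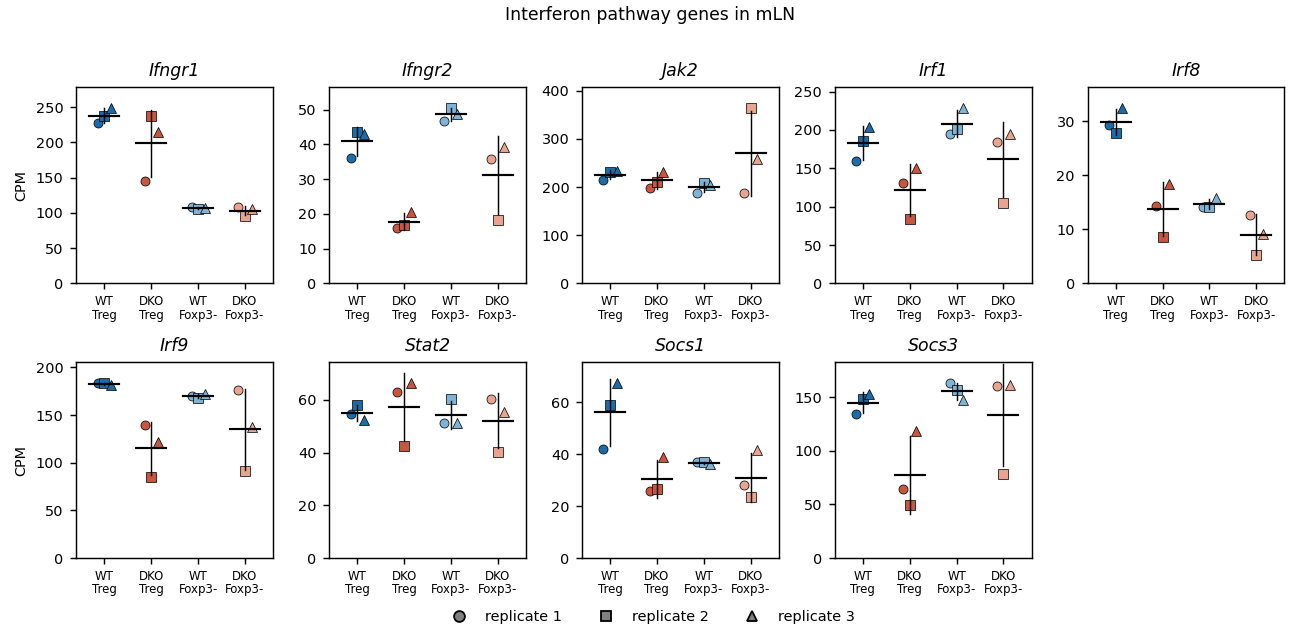
CPM of 9 interferon pathway genes in each mLN library, with 1 panel per gene, symbols for replicates, horizontal bars for group means and vertical bars of ±1 SD (n = 3). Ifngr2 and Irf8 in DKO Treg cells lie below every WT Treg library, whereas Jak2 and Stat2 overlap.

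In mLN CD4+Foxp3- cells the regulatory factor list had 1 call, Irf5, at 3.15, 2.77 and 2.89 CPM in WT and at 5.50, 22.5 and 5.48 CPM in DKO (log2 fold change 1.95, SE 0.49, adjusted p = 0.0463). The value of DKO replicate 2 stood far above the others, and without it the log2 fold change was 0.90 and the call was lost, as it was without WT replicate 1, 2 or 3, with a stricter filter on low counts and with a robust prior. The receptor, kinase and STAT, and inhibitor lists had 0 calls there by edgeR and 0 by DESeq2, with 2, 1 and 0 genes at an unadjusted p under 0.05, against 18.7% of all genes. In spleen+pLN Treg cells these 4 lists had 0 calls by edgeR. In them 2, 1, 2 and 1 genes had an unadjusted p under 0.05, against 20.4% of all genes. DESeq2 called the receptor gene Il10rb (-0.62, adjusted p = 0.0342) and the regulatory factor Irf1 (-0.63, adjusted p = 0.0354) lower, against 1.32% of all genes. Ifngr2 and Irf8, called in mLN Treg cells, were not called there by either method. In mLN CD4+Foxp3- cells DESeq2 also called 2 of 38 other antiviral genes higher, against 4.97% of all genes. These were Ifitm2 (3.38, adjusted p = 4.2e-05) and Ifi204 (0.90, adjusted p = 0.033).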

How the data were processed

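The deposited counts were made by the authors from TruSeq stranded single-end reads of 50 bases (HiSeq2500), aligned to mm9 with TopHat2 and counted strand-specifically on RefSeq genes with featureCounts. How the authors computed the deposited TPM is not given in the sources used here, and these values were used to set levels of different genes side by side and, as an alternative scale, for the members' median level. Counts were normalised by TMM and tested with edgeR 4.0.16 (quasi-likelihood, R 4.3.3), each tissue in its own fit of 4 groups, over genes with at least 1 count in total. Calls needed an adjusted p (Benjamini-Hochberg over all genes) no higher than 0.05 and a 1.5-fold change (no fold minimum for the interaction). DESeq2 1.42.0 was an alternative, and the scripts were tested on simulated data. Members and lists were chosen with earlier results of these data known. Every member was named and given its calls; values by sample were given for the most abundant member per role and for the called members with the largest changes, and other genes were chosen after their values were seen. A single gene of the kinase and STAT list is not reported here. In mLN, Treg and CD4+Foxp3- libraries of the same genotype and number deviated together (correlations 0.11 to 0.39 over 6 pairs). Pairs of the same genotype and unlike number had correlations of -0.36 to 0.16 (12 pairs). The numbers were therefore taken to pair these cell types, although the ranges overlap and no label states a pairing. Floors cover counting error only. P-values measure the spread between biological replicates, and the labels do not say that each is a separate mouse. RefSeq windows were found for 30 members and not for 11.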

Additional observations from a re-analysis of the deposited data

How the results depend on the processing

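Without 1 library in turn, the members called numbered 3 to 7 against 8 for mLN DKO Treg cells, 0 to 1 against 1 for mLN DKO CD4+Foxp3- cells, 0 to 1 against 0 for the mLN interaction, 3 to 4 against 5 between cell types in WT mLN and 2 to 10 against 2 in DKO mLN. In spleen+pLN the same ranges were 0 to 8 against 1, 0 to 21 against 0, 0 to 9 against 0, 0 to 1 against 2 and 2 to 22 against 3, where the lone library of a group was assumed to vary like the others. The fits with 8, 21, 9 and 22 members called 10.4%, 16.9%, 4.14% and 8.05% of all genes. In mLN the fits with 7 and 10 called 11.7% and 17.6%. A robust prior gave 5 members in mLN Treg cells and 0 in spleen+pLN Treg cells, against 11.1% and 0.697% of all genes. The stricter count filter gave 0 in the latter cells (24 genes of all called, against 285). DESeq2 gave 1 member for the mLN interaction (402 genes of all, against 47) and 2 in spleen+pLN Treg cells (663 genes of all). With no fold change minimum, members between cell types numbered 8 in WT and 5 in DKO mLN, against 15.1% and 17.6% of all genes. The replicate block across genotypes gave 2 members in spleen+pLN Treg cells (Irgm2 and Ifi47), against 1.81% of all genes. In mLN Treg cells it gave 9 (Gbp4 added, adjusted p = 0.0453), against 12.2% of all genes. The block kept the other counts within 1.5 times. Across genotypes the same-numbered mLN libraries correlated at -0.05 to 0.11, and same-numbered spleen+pLN libraries at 0.16 to 0.22 (0.21 to 0.34 between cell types of a genotype). With 2 numbers per group in spleen+pLN, the opposite pairing has the opposite correlation by construction, and the labels do not tie numbers to mice, so the block is given there as an alternative only. The block within genotype, chosen after seeing the data, gave 1 member for the mLN interaction, against 0.703% of all genes.

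Without DKO replicate 2 of both cell types in mLN, also chosen after seeing the data, members called numbered 6 in Treg cells (Gbp5, Ifi47, Irf9 and Ifi27l2a lost, Usp18 and Ifit3 gained), 3 for the interaction (Gbp3, Igtp and Iigp1) and 4 between DKO cell types, against 14%, 3.26% and 16.2% of all genes in the same fits. Without DKO replicate 1 of both in spleen+pLN they numbered 8 in Treg cells (4 higher, 4 lower), 1 for the interaction and 6 between DKO cell types, against 8.2%, 2.63% and 13.4% of all genes. The median level of members in spleen+pLN Treg cells, DKO minus WT in log2(CPM + 1), was 0.04 for antiviral genes and -0.72 for GTPases, and became 0.72 and -0.42 in log2(TPM + 1), and 0.75 and -0.42 in log2(TPM + 0.1).

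Changes of sign, read over GTPases and called members, touched Gbp2, Gbp3, Gbp4, Gbp7, Iigp1 and Irgm2. Without 1 library, the log2 fold change in mLN Treg cells ran from -0.30 to 0.165 for Gbp2, and in mLN CD4+Foxp3- cells from -0.21 to 0.275 (Gbp2), -0.24 to 0.168 (Gbp3), -0.33 to 0.0313 (Gbp7), -0.33 to 0.383 (Iigp1) and -0.38 to 0.102 (Irgm2). Without DKO replicate 2 of both cell types, Gbp2 in mLN Treg cells was 0.168, and in mLN CD4+Foxp3- cells Gbp2, Gbp3, Gbp7, Iigp1 and Irgm2 were 0.257, 0.148, 0.0124, 0.364 and 0.0836. Iigp1 there was 0.003 by DESeq2. In spleen+pLN, without 1 library, Gbp2 ran from -0.22 to 0.136 and Gbp4 from -0.20 to 0.0004 in Treg cells, and Gbp2 from -0.37 to 0.0138 in CD4+Foxp3- cells. Without DKO replicate 1 of both these were 0.142, 0.0057 and 0.0215. The cause of these shifts was not tested. The 2 libraries a group in spleen+pLN and the low counts of Mx1 and Oas2 limit what could be called.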

Other observations

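Other interferon-inducible GTPases, listed for the pathway and not among the 41 genes, had 1 call among 7 in mLN DKO Treg cells, where 3.43% of all genes were called lower: Gbp8 was lower (-0.75, adjusted p = 0.0257 by edgeR's quasi-likelihood test). All 7 had a log2 fold change below 0, with a median of -0.62, and DESeq2 called Gbp9 (-0.61, adjusted p = 0.0261) beside Gbp8. Gbp8 was at 54.4, 53.8 and 45.9 CPM in WT and at 32.2, 24.1 and 35.4 CPM in DKO Treg cells, with no overlap, and its call was lost without WT replicate 1 or 2 or DKO replicate 2. In spleen+pLN, Gbp1 was at 13.1 and 13.6 CPM in WT and at 3.95 and 4.10 CPM in DKO Treg cells (log2 fold change -1.73, adjusted p = 0.015), and was higher in Treg than in CD4+Foxp3- cells of both genotypes (2.68 in WT and 2.07 in DKO). The call for Gbp1 was lost without WT replicate 1 or 2 or DKO replicate 1 and with a stricter filter on low counts, while its log2 fold change stayed between -1.75 and -1.70 in all 10 alternatives.

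Trex1, the exonuclease that degrades cytosolic DNA and so restrains the interferon response, fell in Treg cells of both tissues. It was at 27.5, 27.8 and 28.2 CPM in mLN WT and at 8.25, 7.40 and 7.80 CPM in mLN DKO Treg cells (log2 fold change -1.83, SE 0.32, adjusted p = 0.00191), a call kept in 12 of 12 alternatives. In spleen+pLN Treg cells Trex1 was at 41.7 and 43.0 CPM in WT and at 12.2 and 14.5 CPM in DKO (-1.67, adjusted p = 0.0127), a call kept in 6 of 10 alternatives and lost without WT replicate 1 or 2 or DKO replicate 1 and with a stricter filter on low counts, with log2 fold changes between -1.80 and -1.55 in all 10. In mLN CD4+Foxp3- cells it was at 20.9, 18.02 and 16.3 CPM in WT and at 15.1, 3.94 and 8.75 CPM in DKO, which did not pass edgeR's test and was called by DESeq2 (-0.99, adjusted p = 0.0462). These genes were singled out after their values were seen.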
